A study of Dorcoceras hygrometricum with 9 samples.

Results

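Bhs12_112V1.1 and Bhs4989_007V1.1 are the genes of the resurrection plant Boea hygrometrica whose best database matches are the autophagy proteins ATG9-like and ATG5-like of grapevine. They were taken by gene identifier and make up 2 of the 24182 genes with a read in any library and 2 of the 14585 genes that entered the tests. Leaves of potted plants, listed as Dorcoceras hygrometricum, were sampled hydrated, dried to 70% relative water content (RWC, the water in the leaf as a share of what it holds at full turgor) and dried to 10% RWC. Each state had 3 RNA-sequencing libraries, which the design text calls biological replicates. The title HD was read as hydrated. The sources used here do not give strain, plant age, drying time or the number of plants behind a sample.

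Autophagy carries cytoplasm and organelles to the vacuole for breakdown in a vesicle with a double membrane, the autophagosome, and in leaves it recycles nutrients during starvation, stress and senescence. In yeast and Arabidopsis, ATG9 is the core factor that spans the membrane, and it brings lipid to the growing autophagosome on small vesicles together with ATG2 and ATG18. ATG5 is a soluble protein that is linked covalently to the ubiquitin-like ATG12, and this conjugate, with ATG16, directs the attachment of ATG8 to membrane lipid. The pair therefore stands for separate arms of the pathway, membrane supply and ATG8 conjugation. The kinase TOR holds the pathway back in nutrient-rich cells and the kinase SnRK1 promotes it when energy is low.

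The ATG9-like gene Bhs12_112V1.1 lies on scaffold 12 at positions 773930 to 778123 (plus strand) and has a coding length of 2586 bases, or 862 codons. The ATG5-like gene Bhs4989_007V1.1 lies on scaffold 4989 at positions 43933 to 49940 (plus strand) with a coding length of 1104 bases, or 368 codons. The sources used here name no assembly version for these coordinates. Neither gene model overlaps another. Reads covered 91.2% to 99.8% of the ATG9-like model in each library and 98.1% to 99.4% of the ATG5-like model, so the counts came from nearly the whole length of both.

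Libraries held 6654601 to 7423965 uniquely aligned reads in the tested genes, and 17952 to 18563 genes with a read. The leaf markers searched (24 genes of Rubisco, its activase, light harvesting and the photosystems) summed to between 43102 and 52298 reads per 1000000 in hydrated libraries, 5111 to 5897 at 70% RWC and 3510 to 3966 at 10% RWC. The 2 root markers were at or near 0, with at most 0.60 reads per 1000000 in any library, while 8 genes described as pollen-specific or anther-specific summed to 290 to 298 reads per 1000000 in hydrated libraries, 152 to 157 at 70% RWC and 110 to 124 at 10% RWC. The part of these shifts in the results on the pair was not tested. The chi-square per gene between replicates 2 and 3 of a state was 1.27 to 1.39, close to the 1 of pure sampling, whereas replicate 1 stood 5.005 to 8.60 from either. Nothing in the labels says that replicates came from separate plants, so the p-values measure only the spread between these libraries, which may be technical. In a whole leaf, a transcript made by more or fewer cells and one made more or less in each cell cannot be told apart. Values are shares of a library, so the amount of a transcript per leaf and its rates of synthesis and loss were not measured.

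Transcripts of the ATG9-like gene were higher in the drier leaves at each step. Hydrated libraries gave 360, 310 and 300 reads, or 45.98, 43.99 and 44.1 CPM (CPM are reads per 1000000 of scaled library size). Libraries at 70% RWC gave 649, 630 and 606 reads, or 90.3, 92.2 and 89.3 CPM. At 10% RWC the gene had 2074, 1910 and 2091 reads, or 276, 268 and 282 CPM. The 3 states did not overlap: the highest hydrated library stood at 45.98 CPM and the lowest at 70% RWC at 89.3 CPM, and the highest at 70% RWC at 92.2 CPM and the lowest at 10% RWC at 268 CPM.

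State means of the ATG9-like gene were 44.7 ± 1.11 CPM in hydrated leaves, 90.6 ± 1.498 CPM at 70% RWC and 275 ± 7.33 CPM at 10% RWC (SD, n = 3). The gene rose 2.03-fold from hydrated leaves to 70% RWC (log2 fold change 1.02 ± 0.06 SE, adjusted p = 1.72e-10). From 70% to 10% RWC it rose 3.04-fold (log2 fold change 1.60 ± 0.06, adjusted p = 1.12e-13). Over the whole course the increase was 6.16-fold (log2 fold change 2.62 ± 0.06, adjusted p = 1.53e-16). Adjusted p values printed for genes are from the quasi-likelihood test of edgeR, adjusted by the Benjamini-Hochberg method over the 14585 genes.

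Transcripts of the ATG5-like gene followed the same order. Hydrated libraries gave 152, 149 and 141 reads, or 19.4, 21.1 and 20.7 CPM. Libraries at 70% RWC gave 330, 286 and 305 reads, or 45.9, 41.9 and 44.9 CPM. At 10% RWC the gene had 798, 764 and 828 reads, or 106, 107 and 111.8 CPM. Again no state overlapped another, since the hydrated libraries reached at most 21.1 CPM, those at 70% RWC lay between 41.9 and 45.9 CPM, and those at 10% RWC began at 106 CPM.

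State means of the ATG5-like gene were 20.4 ± 0.905 CPM, 44.2 ± 2.11 CPM and 108 ± 3.004 CPM from wet to dry (SD, n = 3). It rose 2.17-fold to 70% RWC (log2 fold change 1.12 ± 0.09, adjusted p = 2.05e-09). From 70% to 10% RWC it rose 2.45-fold (log2 fold change 1.29 ± 0.07, adjusted p = 3.26e-11). Over the whole course it rose 5.31-fold (log2 fold change 2.41 ± 0.08, adjusted p = 1.07e-14). The comparisons with hydrated leaves share the hydrated libraries, and those that involve 70% RWC share its libraries, so the 3 results for a gene are not independent of each other.

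**Figure D1:**
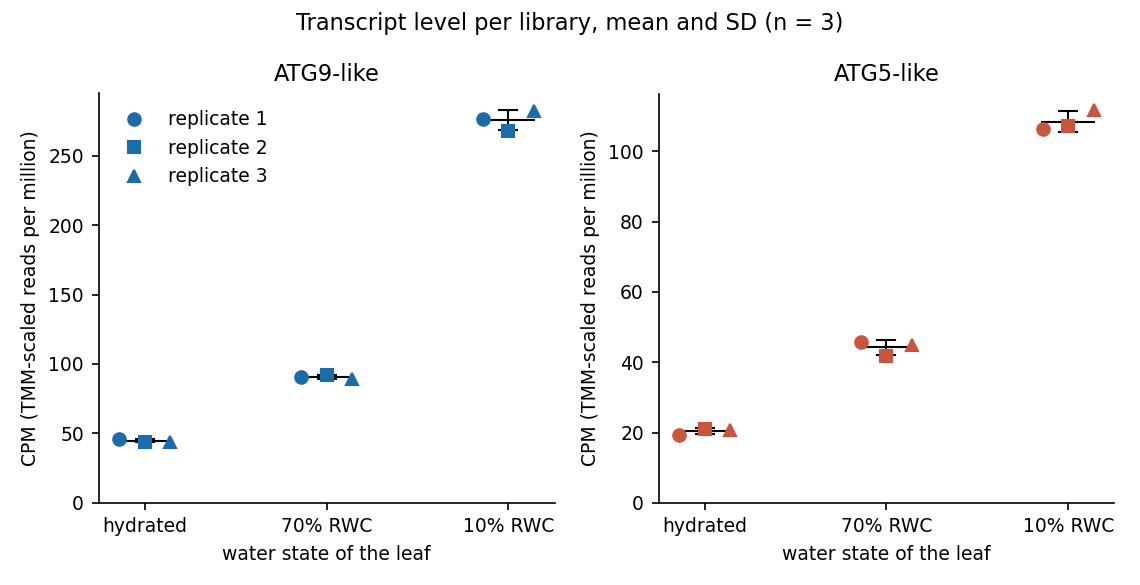
Transcript level of the ATG9-like gene (left) and the ATG5-like gene (right) in CPM on linear axes that start at 0, by water state. Points are libraries, with a shape for each replicate number, and bars are the mean and SD of 3 libraries; the ATG9-like gene goes from 44.7 to 90.6 to 275 CPM and the ATG5-like gene from 20.4 to 44.2 to 108 CPM, with no overlap between states.

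Replicate scatter was close to or below the scatter that counting alone gives for most of these groups. The coefficient of variation of the ATG9-like gene was 2.49% in hydrated leaves, 1.65% at 70% RWC and 2.66% at 10% RWC, beside counting values of 5.56%, 3.99% and 2.22%. For the ATG5-like gene it was 4.43%, 4.77% and 2.77%, beside 8.24%, 5.71% and 3.54%. The lowest count of the pair, 141 reads of the ATG5-like gene in hydrated replicate 3, is 21.1 reads per 1000000 with an exact (Clopper-Pearson) 95% interval of 17.8 to 24.9, which covers counting error only. Replicate 1, which stood apart across the transcriptome, gave 19.4 CPM for the ATG5-like gene in hydrated leaves against a mean of 20.9 CPM in replicates 2 and 3, 45.9 against 43.4 CPM at 70% RWC, and 106 against 109 CPM at 10% RWC. For the ATG9-like gene it gave 45.98 against 44.1 CPM, 90.3 against 90.7 CPM and 276 against 275 CPM.

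Increases were common in this drying series, so the calls of the pair were read against all genes. At 70% RWC against hydrated leaves 70.5% of tested genes were called in either direction and 34.6% higher, and both members were among the latter. For 10% RWC beside hydrated leaves the shares were 83.9% and 42.4%, and for the step from 70% to 10% RWC 76.8% and 37.1%, with both members called higher in each. In size, the log2 fold change of the ATG9-like gene exceeded that of 84.9% of tested genes at 70% RWC, 94.0% over the whole course and 91.2% in the step from 70% to 10% RWC. The ATG5-like gene exceeded 86.4%, 92.9% and 86.9% of them. Thus 1986 to 2208 genes had larger increases than the members in the first comparison, and 879 to 1037 over the whole course. From 70% to 10% RWC, 1280 genes rose more than the ATG9-like gene and 1910 more than the ATG5-like gene.

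**Figure D2:**
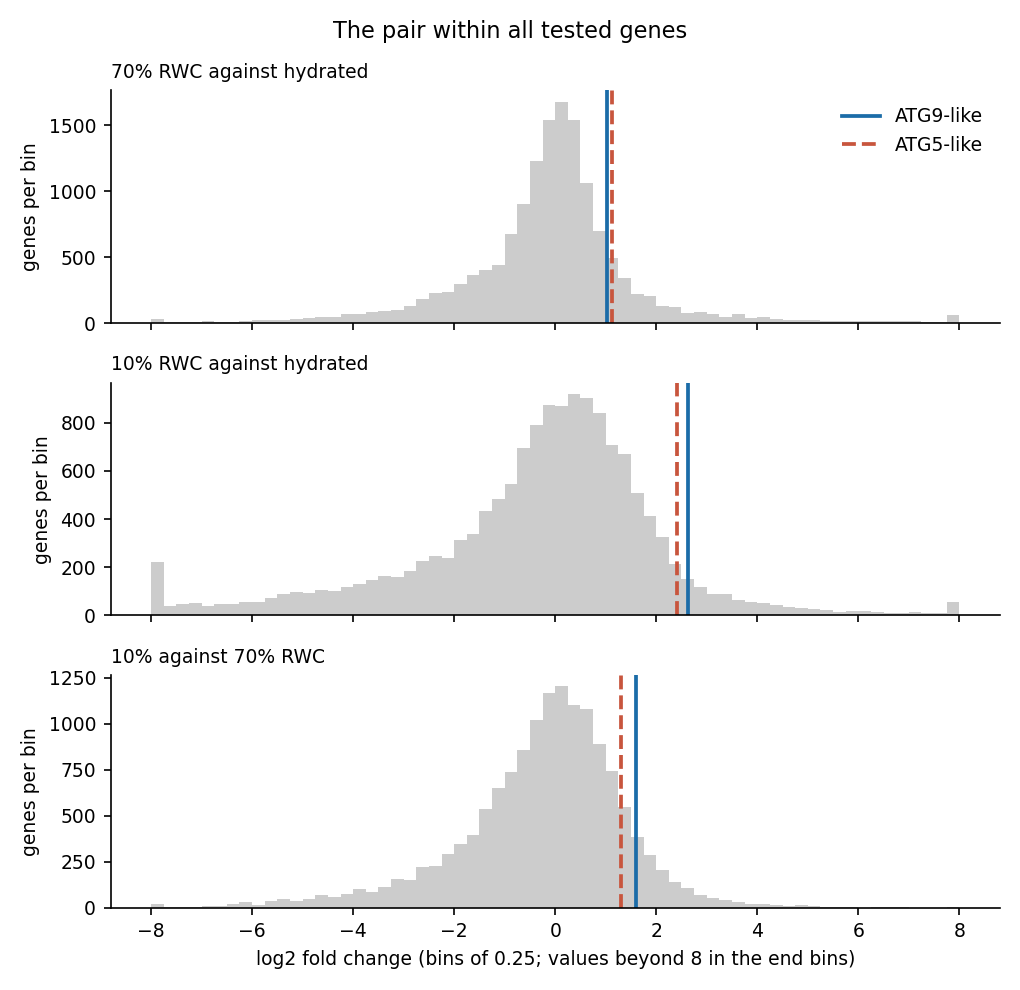
Histograms of the log2 fold changes of all 14585 tested genes in the 3 comparisons (x axis, log2 fold change in bins of 0.25; y axis, genes per bin), with the ATG9-like gene as a solid line and the ATG5-like gene as a broken line. Both lines lie to the right of the centre in each panel, with the ATG5-like gene farther right at 70% RWC (1.12 against 1.02) and the ATG9-like gene farther right at 10% RWC (2.62 against 2.41).

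The authors' deposited table gave log2 fold changes of 1.01 at 70% RWC and 2.47 at 10% RWC for the ATG9-like gene, with adjusted p values of 2.72e-15 and 2.52e-90. For the ATG5-like gene the authors' deposited table gave 1.1002 and 2.26, with adjusted p values of 5.28e-13 and 4.76e-58. Both directions were those found here.

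The late step was larger than the early step for the ATG9-like gene on the log2 scale. The sources used here give no RWC for the hydrated leaves, so the steps compare states and are not rates per water lost. The change from 70% to 10% RWC exceeded that from hydrated leaves to 70% RWC by 0.59 ± 0.11 (SE, adjusted p = 0.000129 by edgeR's quasi-likelihood test of that difference). For the ATG5-like gene the excess was 0.18 ± 0.14 (adjusted p = 0.266). A difference between the steps was called for 67.1% of tested genes, and a positive one for 33.3%. This contrast was chosen after the values had been seen, and with libraries scaled by total counts the ATG5-like excess was 0.35 with adjusted p = 0.0381.

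Compared per length, the pair was at similar levels. In CPM per kilobase of coding sequence, the ATG9-like gene stood at 17.3 ± 0.430 in hydrated leaves, 35.03 ± 0.579 at 70% RWC and 107 ± 2.83 at 10% RWC. The ATG5-like gene stood at 18.5 ± 0.820, 40.1 ± 1.91 and 98.2 ± 2.72. Both were near the middle of all tested genes in hydrated leaves, above 51.3% and 53.5% of them per length, and above 88.9% and 87.7% of them at 10% RWC.

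The per-length ratio of the ATG9-like to the ATG5-like gene was 1.01, 0.888 and 0.908 in the hydrated libraries. It was 0.8396, 0.9404 and 0.848 at 70% RWC and 1.11, 1.07 and 1.08 at 10% RWC. The libraries at 10% RWC were thus the highest of the 9 and did not overlap either other state, while hydrated and 70% RWC libraries overlapped. As log2 ratio of CPM, the mean at 10% RWC was 1.34 ± 0.0290 (SD, n = 3) against 1.12 ± 0.0988 in hydrated leaves, a difference of 0.22 (two-sided exact permutation p = 0.1, adjusted p = 0.15 over 3 comparisons). Against the 1.03 ± 0.08998 of 70% RWC the difference was 0.31 (exact permutation p = 0.1, adjusted p = 0.15), and between 70% RWC and hydrated leaves it was -0.09 (exact permutation p = 0.3, adjusted p = 0.3). With 3 libraries against 3 the smallest p a pairwise test allows is 0.1, so these p values could not pass the threshold whatever the data. An exact permutation test over the 3 states together, added after the values had been seen, gave p = 0.0107 for a difference of the ratio between states, where the smallest p it allows is 0.00357. It does not say which states differ. Without any 1 library its p lay between 0.00714 and 0.0464.

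Other genes of the pathway list, TOR and SnRK1 signalling genes included, moved in both directions. Search words for the pathway found 16 further genes in the authors' best-match descriptions, of which 15 passed the filter on low counts, and a fragment described only as autophagy-related (11 reads in all libraries) did not. At 70% RWC 8 of the 15 were called higher and 2 lower, with a median log2 fold change of 0.56 beside -0.01 for all tested genes. At 10% RWC 9 were higher and 3 lower (median 0.61, beside 0.01). From 70% to 10% RWC 4 were higher and 7 lower (median -0.17, beside -0.05). Beside these counts, 34.6%, 42.4% and 37.1% of all tested genes were called higher and 35.9%, 41.5% and 39.6% lower. Called lower in both dry states against hydrated leaves were the SnRK1 catalytic gene KIN10-like (Bhs32_059V1.1) and Joka20 (Bhs12_067V1.1). LST8 (Bhs1861_008V1.1), a partner of TOR, was also called lower at 10% RWC. From 70% to 10% RWC the genes called lower also included ATG7 (Bhs45_009V1.1). A look through the KEGG texts and other wordings, made after the values had been seen, added 14 genes, and the 29 tested genes together had 15 higher and 8 lower at 70% RWC, 15 higher and 8 lower at 10% RWC, and 11 higher and 10 lower from 70% to 10% RWC.

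The class III phosphatidylinositol 3-kinase complex makes the lipid mark on which autophagosomes form. Beclin 1 (Bhs3559_004V1.1), called ATG6 in plants, rose from 6.72 ± 0.621 CPM in hydrated leaves to 11.1 ± 1.52 CPM at 70% RWC and 21.5 ± 2.43 CPM at 10% RWC (adjusted p = 7.80e-04 and 9.70e-09 against hydrated leaves). It was the one tested gene of this complex found by description, and the others came from the added wordings. A further beclin by its KEGG text, Bhs18434_001V1.1, rose from 4.78 ± 0.656 to 10.6 ± 1.08 and 21.8 ± 2.28 CPM (adjusted p = 1.097e-05 and 3.88e-10). The regulatory subunit VPS15 (Bhs4969_004V1.1) rose from 57.1 ± 2.92 to 91.4 ± 3.20 and 158 ± 5.75 CPM (adjusted p = 1.04e-07 and 1.05e-12).

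The lipid kinase itself, taken as VPS34 by the added wordings (Bhs508_033V1.1), went from 66.9 ± 0.935 to 76.6 ± 4.12 and 143 ± 14.001 CPM. Its increase at 10% RWC was 2.13-fold (adjusted p = 3.70e-10). At 70% RWC the increase of 1.14-fold (adjusted p = 0.0366) was not called in 9 of 18 other settings, among them those without hydrated replicate 2 (adjusted p = 0.0888) or 3 (adjusted p = 0.0647) and without 70% RWC replicate 1 (adjusted p = 0.138) or 2 (adjusted p = 0.0612). With the added genes, 4 of 4 genes of this complex were called higher in each of the 3 comparisons, the VPS34 call at 70% RWC with that limit, where 34.6%, 42.4% and 37.1% of all tested genes were called higher. Of these 4, 3 were added after the values had been seen, so the count describes them and supports nothing about the complex.

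On the side of ATG9, the other gene that could be placed was of the ATG18 type by the added wordings. ATG18 is a propeller protein that binds the lipid made by the kinase complex. Bhs62_032V1.1 did not follow the ATG9-like gene: it fell from 71.8 ± 3.89 CPM to 55.8 ± 1.41 CPM at 70% RWC (log2 fold change -0.36 ± 0.09, adjusted p = 0.00103). At 10% RWC it was at 89.8 ± 9.68 CPM, 1.25-fold above hydrated leaves (adjusted p = 0.00147).

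On the side of ATG5, 9 other genes of the conjugation systems were tested, the added wordings included. At 70% RWC 3 were called higher and 3 lower, and at 10% RWC 4 higher and 2 lower. The shares called higher, 33.3% and 44.4%, were near the 34.6% and 42.4% of all tested genes. Those called higher in both dry states were ATG7, ATG3 and ATG4. Of the 4 genes of ATG8, the protein they process, 1 was called higher at 10% RWC and 0 at 70% RWC, beside 42.4% and 34.6% of all tested genes, so the count is too small to set the family apart. The activating enzyme ATG7 (Bhs45_009V1.1), which serves both ATG12 and ATG8, peaked at 70% RWC, with 26.7 ± 1.41, 70.02 ± 2.11 and 40.8 ± 0.820 CPM from wet to dry. Its late fall was called (log2 fold change -0.78 ± 0.08, adjusted p = 5.53e-08), while the ATG5-like gene rose over that step. ATG3 by its KEGG text (Bhs1612_004V1.1), the enzyme that hands ATG8 to lipid, rose at each step from 28.4 ± 1.05 to 54.2 ± 1.59 and 78.2 ± 3.37 CPM (adjusted p = 1.07e-08 and 7.81e-12 against hydrated leaves). ATG4, the protease that trims ATG8, was matched by a short model of 378 coding bases, Bhs16188_001V1.1. This model rose from 11.9 ± 0.679 to 20.9 ± 0.906 CPM at 70% RWC (adjusted p = 1.80e-05) and stood at 18.6 ± 2.38 CPM at 10% RWC (adjusted p = 1.63e-04).

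Of the ATG8 genes, ATG8a (Bhs3_130V1.1) was at 34.6 ± 2.85, 33.8 ± 4.53 and 48.5 ± 2.19 CPM, and its 1.40-fold increase at 10% RWC was called (adjusted p = 2.31e-04). A short ATG8 model, Bhs6634_001V1.1, was at 26.1 ± 2.90, 24.8 ± 5.62 and 26.1 ± 0.999 CPM and was not called (adjusted p = 0.656 and 0.99 against hydrated leaves). Bhs361_055V1.1, ATG8 by its KEGG text, fell from 106 ± 8.77 to 71.4 ± 6.54 CPM at 70% RWC (adjusted p = 6.32e-06) and was at 105 ± 3.03 CPM at 10% RWC. The last gene placed with ATG8, Bhs80_038V1.1, came from the added wordings, and its best match is an unnamed predicted protein. It was at 5.02 ± 1.01, 3.46 ± 0.1075 and 2.96 ± 0.476 CPM, lower at 10% RWC (adjusted p = 0.00459). Its lower call at 70% RWC (adjusted p = 0.0399) ended in 7 of 18 settings, among them those without hydrated replicate 3 (adjusted p = 0.195) or any 1 of the 70% RWC libraries (0.0757 to 0.0915). ATG12 by its KEGG text (Bhs251_019V1.1), the partner to which ATG5 is joined, had 3.74 ± 0.577, 4.66 ± 0.722 and 3.76 ± 0.382 CPM and was not called against hydrated leaves (adjusted p = 0.196 and 0.968). ATG8 genes form a family of related copies, and the authors' unique counts leave out reads that fit several copies. Whether this affected the ATG8 counts was not tested.

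A gene that the KEGG text also assigns to ATG5, Bhs2441_038V1.1, moved against the ATG5-like gene. It fell from 91.6 ± 3.34 CPM to 24.9 ± 2.40 and 9.596 ± 2.18 CPM (log2 fold changes -1.88 ± 0.11 and -3.26 ± 0.12, adjusted p = 3.65e-11 and 5.84e-14). Its KEGG match is a weak one to an algal protein, its coding length is 519 bases against the 1104 bases of the ATG5-like gene, and its best database match is an unnamed poplar protein, so whether it is an ATG5 copy cannot be told from the files.

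Genes around the kinases that open the pathway were mixed. ATG1 (Bhs451_029V1.1), the kinase that starts autophagosome formation, rose from 36.4 ± 0.315 to 49.7 ± 3.03 and 88.4 ± 2.55 CPM (adjusted p = 6.50e-05 and 2.92e-11). Its partner ATG101 (Bhs2466_003V1.1) was higher in both dry states, with 12.03 ± 1.16, 21.2 ± 4.13 and 19.2 ± 2.49 CPM (adjusted p = 1.18e-04 and 5.86e-04 against hydrated leaves). TOR (Bhs616_020V1.1) rose from 92.2 ± 3.36 to 130 ± 3.44 CPM at 70% RWC (adjusted p = 2.37e-06) and was at 80.1 ± 3.53 CPM at 10% RWC. That last level was called lower than hydrated leaves (log2 fold change -0.20 ± 0.07, adjusted p = 0.00902), but not without 10% RWC replicate 2 (adjusted p = 0.052) or with replicates 2 and 3 summed (adjusted p = 0.0707). Its partner RAPTOR (Bhs3283_016V1.1) stood at 129 ± 5.06, 131 ± 5.23 and 128 ± 4.93 CPM and was not called in any comparison (adjusted p from 0.744 to 0.949), and LST8 (Bhs1861_008V1.1) fell from 22.6 ± 0.347 to 12.9 ± 1.12 CPM at 10% RWC (adjusted p = 3.42e-06).

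SnRK1 is built of a catalytic alpha subunit and regulatory beta and gamma subunits. Against hydrated leaves, its gamma-like genes had the largest increases of the pathway list. Bhs13406_001V1.1 (gamma-like PV42a) was at 0.824 ± 0.233, 212 ± 8.39 and 163 ± 9.33 CPM, so the size of its increase rests on few hydrated reads. Bhs1632_008V1.1 (gamma-1-like) was at 9.97 ± 0.548, 303 ± 6.98 and 103 ± 8.68 CPM. Both were called higher in each dry state (adjusted p from 2.81e-18 to 6.56e-16) and, unlike the pair, fell from 70% to 10% RWC (log2 fold changes -0.38 ± 0.07 and -1.56 ± 0.07, adjusted p = 5.42e-05 and 9.92e-13). The beta-3-like gene Bhs1789_009V1.1 rose late, from 9.21 ± 1.72 CPM at 70% RWC to 20.3 ± 2.35 CPM at 10% RWC (adjusted p = 9.38e-06). A catalytic gene, KIN10-like Bhs32_059V1.1, fell from 8.65 ± 2.37 to 3.06 ± 0.497 and 0.453 ± 0.0695 CPM (adjusted p = 1.47e-05 and 1.92e-09). Of the other 3 catalytic genes, all from the added wordings, Bhs1655_035V1.1 fell from 72.01 ± 3.08 to 57.6 ± 2.43 CPM at 70% RWC (adjusted p = 0.00185) and stayed at 57.8 ± 5.40 CPM. Bhs127_039V1.1 was at 12.9 ± 0.886, 17.7 ± 3.55 and 9.30 ± 1.802 CPM and Bhs878_009V1.1 at 54.7 ± 4.39, 46.9 ± 1.99 and 49.0 ± 1.96 CPM. Their calls against hydrated leaves ended in some settings that left out 1 library, with adjusted p up to 0.134 for Bhs127_039V1.1 (without 70% RWC replicate 1) and 0.108 for Bhs878_009V1.1 (without hydrated replicate 2).

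Among receptors that bring cargo to ATG8, JOKA2 (Bhs107_015V1.1), the counterpart of NBR1 described in tobacco, rose at each step, as the pair did. It was at 573 ± 26.3 CPM in hydrated leaves, 843 ± 20.9 CPM at 70% RWC and 1697 ± 25.8 CPM at 10% RWC, a 2.96-fold increase over the whole course (adjusted p = 8.35e-14). Another JOKA2 match, Bhs1204_009V1.1, was highest at 70% RWC, with 1.39 ± 0.1002, 4.65 ± 0.467 and 1.59 ± 0.382 CPM. Joka20 (Bhs12_067V1.1) entered by its name alone, since its KEGG text is a ribosomal protein, and fell from 253 ± 34.05 to 25.5 ± 4.29 CPM at 10% RWC. Without it the 14 other tested genes had 8 higher and 1 lower at 70% RWC, and 9 higher and 2 lower at 10% RWC. From 70% to 10% RWC they had 4 higher and 6 lower. Of all tested genes, 34.6%, 42.4% and 37.1% were called higher in these comparisons and 35.9%, 41.5% and 39.6% lower.

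Vacuolar processing enzymes and metacaspases, proteases of vacuolar and programmed breakdown, were searched as a separate list, which found 2 metacaspase genes. One, Bhs511_005V1.1, rose from 57.3 ± 2.60 to 87.7 ± 4.93 CPM at 70% RWC (adjusted p = 1.30e-06) and was at 91.2 ± 6.16 CPM at 10% RWC. The other, Bhs109_006V1.1, fell from 12.03 ± 0.199 to 3.60 ± 0.8803 and 1.77 ± 0.385 CPM (adjusted p = 2.36e-07 and 1.50e-09).

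Within the 31 tested autophagy genes, the pair included, the place of the members shifted with drying. At 70% RWC against hydrated leaves the ATG5-like gene ranked 6 and the ATG9-like gene 7 by log2 fold change. Over the whole course the ATG9-like gene ranked 3 and the ATG5-like gene 4, below the 2 SnRK1 gamma-like genes. From 70% to 10% RWC they ranked 1 and 2. These ranks describe sizes and were not tested.

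**Figure D3:**
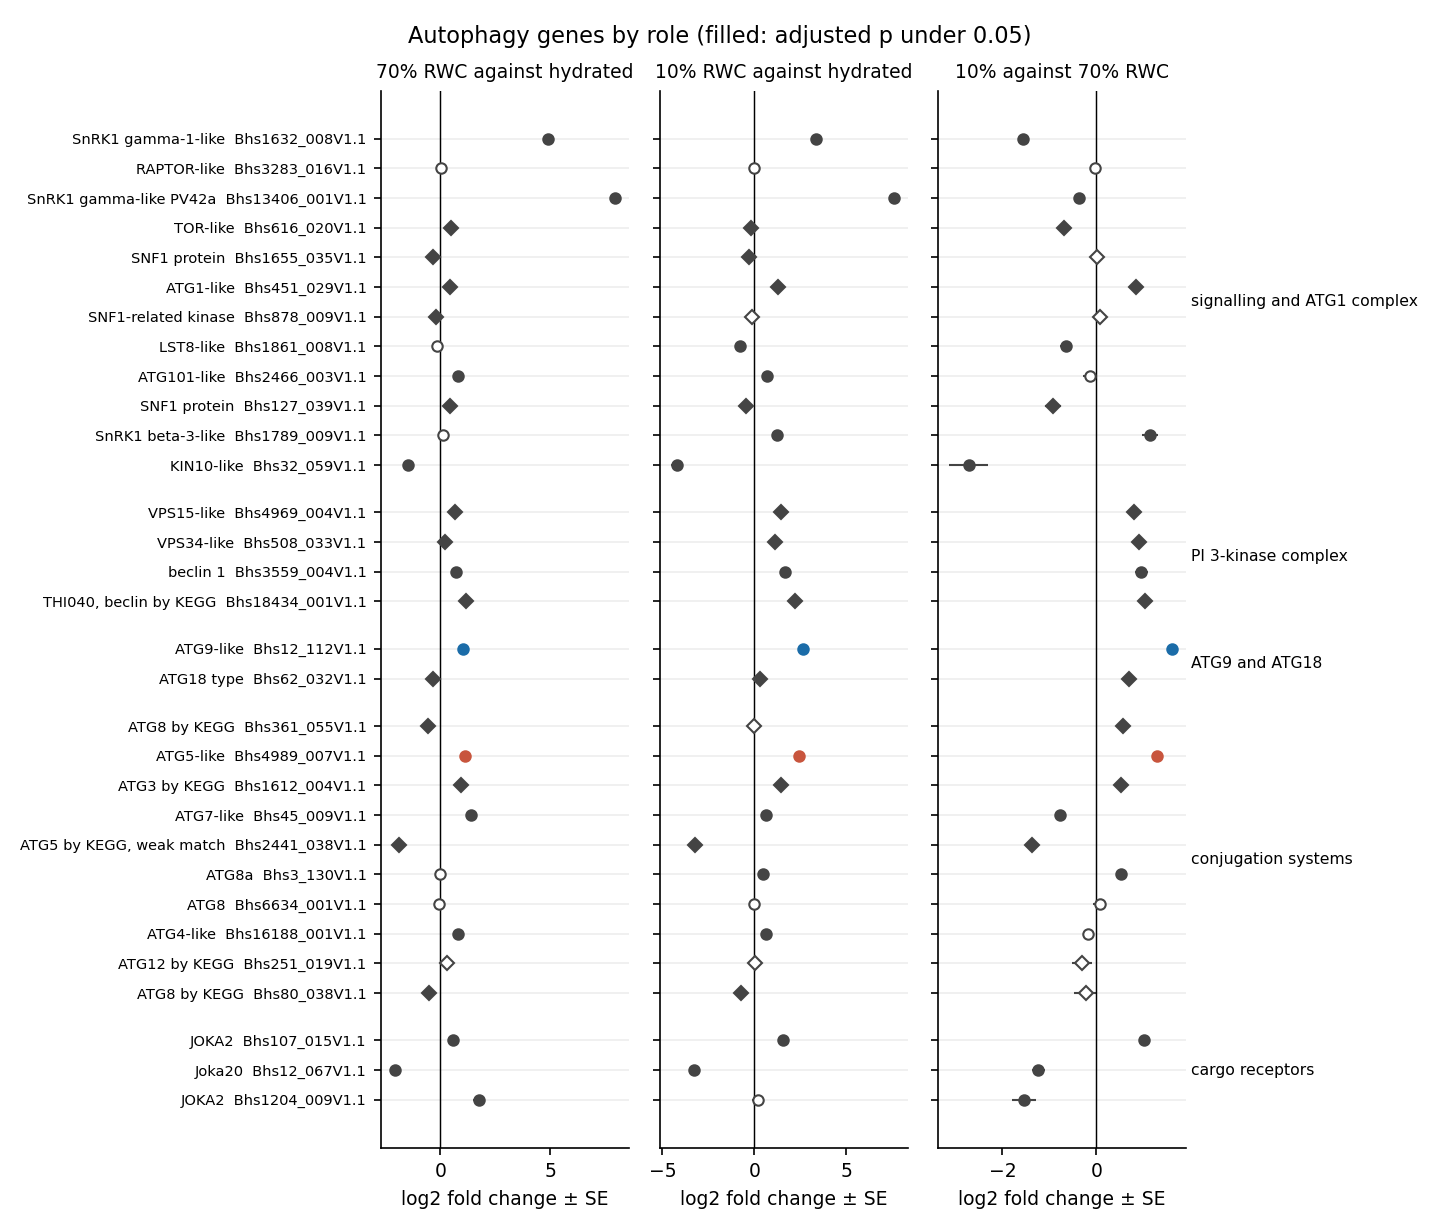
Log2 fold change ± SE (x axis) of the 31 tested autophagy genes (y axis, grouped by role) in the 3 comparisons. Circles are genes found by their description and diamonds those added by KEGG text or other wording, filled where adjusted p is under 0.05; the ATG9-like gene (blue) and the ATG5-like gene (red) lie right of 0 in each panel, and in the right panel farther right than any other gene, at 1.60 and 1.29.

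Similarity of pattern was measured as the root mean square difference of log2 CPM over the 9 libraries, each gene centred on its own mean. Between the pair it was 0.146, beside a median of 1.19 from the ATG9-like gene and 1.1001 from the ATG5-like gene to all 14584 other tested genes. The ATG5-like gene was 25th in closeness to the ATG9-like gene, and the ATG9-like gene 32nd in closeness to the ATG5-like gene. The libraries share depth and scaling, so this is a description of 9 points in 3 states.

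Closest to the ATG9-like gene among genes with an informative description was an alanine-glyoxylate aminotransferase, Bhs2_093V1.1 (difference 0.0806), at 6.85 ± 0.623, 14.9 ± 1.09 and 45.4 ± 3.01 CPM. Next was a triacylglycerol lipase of the SDP1 type, Bhs2272_003V1.1, which breaks down storage oil in Arabidopsis seedlings (0.08899; 35.04 ± 2.005, 63.5 ± 0.564 and 202 ± 5.74 CPM). A putative kinase (Bhs78_011V1.1), an RNA polymerase II subunit (Bhs267_032V1.1) and a putative transporter (Bhs5356_005V1.1) followed, with differences of 0.0993 to 0.109. Closest to the ATG5-like gene was a cytochrome P450 of the 76C1 type, Bhs1029_009V1.1 (0.0875), at 28.6 ± 2.39, 60.5 ± 2.53 and 160.4 ± 8.80 CPM. A leucine-rich repeat protein (Bhs455_024V1.1), an elongation factor 1-alpha (Bhs5_179V1.1), an ADP-ribosylation factor of the vesicle transport GTPases (Bhs23747_001V1.1) and a putative NAC transcription factor (Bhs574_015V1.1) followed, with differences of 0.08996 to 0.108. None of the 10 genes was from the autophagy list. Its 29 other tested genes are few among the 14584 compared, so this absence says nothing about the pathway. The names depend on the measure: ranked by Pearson correlation instead, 0 of the 5 genes nearest to the ATG9-like gene and 1 of the 5 nearest to the ATG5-like gene were kept.

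**Figure D4:**
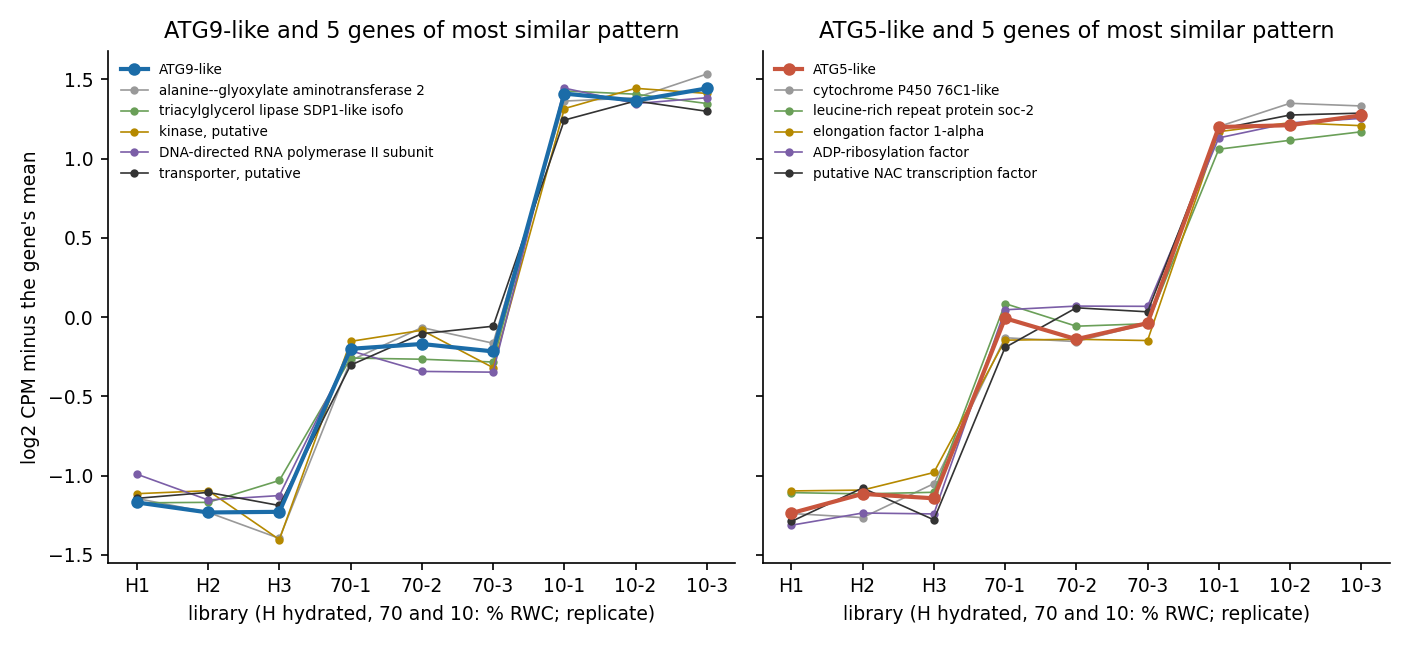
Log2 CPM minus each gene's mean (y axis) in the 9 libraries (x axis) for the ATG9-like gene and the ATG5-like gene (thick lines) and the 5 annotated genes nearest to each in pattern (thin lines). The neighbours were chosen for lying close, within 0.109 of the member as a root mean square, so their agreement is a description; the level at 70% RWC sits lower between the extremes for the ATG9-like gene than for the ATG5-like gene.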

How the data were processed

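The files deposited for the 9 leaf libraries hold a count of uniquely aligned reads per gene and, in percent, how much of each gene reads covered, per the file headers. The aligner, assembly version, counting tool and use of strand are not given in the sources used here, so antisense reads cannot be told apart. Genes absent from a library's file were set to 0. From the authors' deposited table of comparisons, the log2 fold changes and adjusted p-values of the members were copied. Coding lengths are the authors' (100% are multiples of 3).

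Tests used edgeR 4.0.16 under R 4.3.3. Genes were filtered with filterByExpr, which left 14585, libraries were scaled by TMM, and 1 quasi-likelihood model (robust) with a mean for each state was fitted to all 9 libraries. Calls needed a Benjamini-Hochberg adjusted p under 0.05. The SE is the log2 fold change divided by the square root of F. Log2 CPM used a prior count of 2. The test was tried on simulated data with 200 changed genes, whose outcome is not reported here and supports no result. DESeq2 1.42.0 was an alternative, as was the replicate number as a block. The replicate numbers were taken from the titles. Deviations from the state means of same-numbered hydrated and 70% RWC libraries correlated at 0.293, 0.103 and 0.102. Not every same-numbered pair that involves 10% RWC passed 0.1. Libraries of unlike number could correlate as much, with 0.141 for hydrated replicate 2 and 70% RWC replicate 3, so the numbers do not establish pairs. Exact permutation tests used SciPy 1.17.1.

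Genes named are the 2 members, the pathway genes found by search words, up to 3 vacuolar proteases, and the 5 annotated genes nearest to each member in pattern. The members and lists were chosen with earlier results of these data known, and the added wordings and the contrast of steps after the values were seen. A gene's name is that of its best match in the authors' annotation, except for genes from the added wordings. The roles of those genes were read from KEGG text or other wording, and their best match can carry another name.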

Additional observations from a re-analysis of the deposited data

How the results depend on the processing

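Each of the 6 fold changes of the pair kept its direction and its call in 18 of 18 settings: other scalings, filters, DESeq2, the replicate block, 1 library left out at a time, replicates 2 and 3 alone or summed, and the compared states alone. The ATG9-like log2 fold change ranged from 0.92 to 1.05 at 70% RWC, 2.51 to 2.65 at 10% RWC and 1.49 to 1.68 between them. The ATG5-like one ranged from 1.01 to 1.16, 2.29 to 2.43 and 1.21 to 1.37. Adjusted p was largest with replicates 2 and 3 summed (edgeR's quasi-likelihood test). For the ATG9-like gene it was then 2.18e-06 at 70% RWC, 9.63e-10 at 10% RWC and 5.13e-08 between them. For the ATG5-like gene it was 4.6e-06, 5.89e-09 and 8.13e-07. Genes called numbered 9608 to 10986, 11889 to 13646 and 10736 to 11887. The ATG9-like excess of the late step lay between 0.47 and 0.77 and was called in 17 of 17 settings, while the ATG5-like excess (0.09 to 0.35) was called with total counts alone (0.35, adjusted p = 0.0381). That scaling moved the median log2 fold change of all genes at 70% RWC from -0.01 to -0.11. Leaving out 70% RWC replicate 1 moved the median at 10% RWC to -0.11 and that from 70% to 10% RWC to -0.16, and fitting hydrated and 10% RWC libraries alone moved the former to -0.10.

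Deviations of same-numbered libraries from their state means correlated positively in 9 of 9 pairs (0.0694 to 0.293), with replicate 1 highest (0.238 to 0.293). In the comparisons with 10% RWC some of these pairs fell below 0.1. Replicates 2 and 3 also correlated positively across unlike numbers. Hydrated replicate 2 and 70% RWC replicate 3 gave 0.141, and 70% RWC replicate 3 and 10% RWC replicate 2 gave 0.113. Only replicate 1 was thus set apart by its number. With the replicate number as a block, 10928, 12621 and 11728 genes were called, beside 10284, 12235 and 11194. Of 36 named or neighbouring genes, the block changed the call of 1 at 70% RWC (Bhs12_113V1.1), 1 at 10% RWC (Bhs878_009V1.1, adjusted p = 0.0871 without and 0.0365 with it) and 0 from 70% to 10% RWC.

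Counts of other autophagy genes changed with the length of the list, which had 15 tested genes by description and 29 with KEGG text and other wordings. Of the 29, 15 were higher and 8 lower at 70% RWC, 15 and 8 at 10% RWC, and 11 and 10 from 70% to 10% RWC. The shares higher were 51.7%, 51.7% and 37.9%. By description alone they were 53.3%, 60% and 26.7%, and for all tested genes 34.6%, 42.4% and 37.1%. Without Joka20, 1 of 14 genes was lower at 70% RWC, beside 35.9% of all tested genes. Of 79 calls of single named or neighbouring genes, 7 ended in some setting and 0 reversed. The exact test of the pair's ratio over the 3 states gave p between 0.00714 and 0.0464 without 1 library, and 0.2 with replicates 2 and 3 alone, where it cannot go below 0.0667.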

Other observations

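The 3 tested genes beside the pair on their scaffolds were called higher at 10% RWC as well, by amounts of their own. Of all tested genes, 42.4% were called higher there, so a count of 3 says nothing about the region. Upstream of the ATG5-like gene, 973 bases away on the opposite strand, Bhs4989_006V1.1 (described as a conserved hypothetical protein) was at 11.6 ± 0.691 CPM in hydrated leaves, 13.7 ± 1.36 CPM at 70% RWC and 90.6 ± 1.60 CPM at 10% RWC (n = 3). It was not called at 70% RWC (log2 fold change 0.23 ± 0.12, adjusted p = 0.0871 by edgeR's quasi-likelihood test) and rose at 10% RWC (2.96 ± 0.10, adjusted p = 6.93e-15), where the ATG5-like gene rose at both. On the other side, a glutathione transferase gene had 34 reads in all libraries and was not tested. Downstream of the ATG9-like gene, 1160 bases away on the same strand, Bhs12_113V1.1 (described as nephrocystin-3) was at 26.6 ± 2.10, 30.7 ± 2.92 and 54.3 ± 5.03 CPM, with an increase called at 10% RWC (log2 fold change 1.03 ± 0.10, adjusted p = 4.13e-08). At 70% RWC its log2 fold change of 0.21 ± 0.11 was not called (adjusted p = 0.0974), but a replicate block in the model gave adjusted p = 0.0341. Upstream of the ATG9-like gene, Bhs12_111V1.1 (described as angio-associated migratory cell protein) was at 26.6 ± 1.54, 22.3 ± 0.608 and 34.9 ± 2.50 CPM, with an increase called at 10% RWC (log2 fold change 0.39 ± 0.09, adjusted p = 9.41e-04). Its decrease at 70% RWC (adjusted p = 0.0332) ended in 7 of 18 settings, with adjusted p up to 0.107 (without 70% RWC replicate 3). The neighbours were looked up after the values of the pair had been seen.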
